A study of Mus musculus with 12 samples.

Results

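Pvalb, Calb2, Reln, Lhx6, Dlx1, Sox6, Nos1 and Erbb4 mark classes of cortical inhibitory interneurons, and their transcripts were measured in mouse auditory cortex with and without a pharmacological stimulus of network activity. The members were chosen by name, as the rows that carry these 8 symbols in the expression file of every library, and all 8 were found among 20590 symbols (20989 loci). The tissue came from 6 C57bl6/J mice aged 4 weeks. Acute coronal slices were parted into hemispheres, so that each mouse gave both a control and a cocktail library (6 against 6). Control hemispheres rested 1 h in artificial cerebrospinal fluid (aCSF). Cocktail hemispheres spent 1 h in aCSF with the GABA-A receptor blocker bicuculline (50 µM), norepinephrine (100 µM), the cholinergic agonist carbamoylcholine (50 µM), dopamine (100 µM), ascorbic acid (40 µM) and serotonin (100 µM). Slices of both groups are cut off from their long range inputs, and which hemisphere received the cocktail is not given in the sources used here. The design asks how these marker genes are expressed in control slices, and whether their transcripts differed between the hemispheres of a mouse after stimulation.

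Interneurons release GABA onto neighbouring cells and fall into classes with distinct origins, shapes and targets. Cells born in the medial ganglionic eminence need the homeobox factor Lhx6 and the HMG-box factor Sox6 to migrate and mature, and they give rise to fast-spiking basket and chandelier cells, which hold the calcium buffer parvalbumin (Pvalb), and to somatostatin cells. Bipolar cells of the caudal ganglionic eminence often hold another calcium buffer, calretinin (Calb2), and layer 1 neurogliaform cells secrete the glycoprotein reelin (Reln). Dlx1 is a homeobox factor of cortical GABAergic lineages. Nos1 is the neuronal nitric oxide synthase of a sparse set of cells, and Erbb4 is the neuregulin receptor of many interneurons in the cortex. None of the 8 is restricted to interneurons in the brain as a whole: calretinin, for instance, is also made in midline thalamus. In bulk tissue, fewer cells of a class and less RNA per cell cannot be told apart. Nor can transcripts of a marker that other cell types of the cortex make.

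Inhibitory neurons were well represented in the tissue. Gad1 and Gad2, which make GABA, had 91.5 ± 5.77 and 28.4 ± 2.54 FPKM in control (SD, n = 6), a unit of fragments scaled to transcript length and library size, and Slc32a1, the vesicular GABA transporter, had 35.9 ± 1.67. Slc17a7, the vesicular glutamate transporter of cortical excitatory neurons, had 689 ± 38.0 FPKM. The cocktail acted on the slices: the activity-regulated genes Fos and Arc rose by 0.99 ± 0.0790 and 0.82 ± 0.0628 (SE) on the scale of log2(FPKM + 1), with adjusted p-values of 2.92e-05 and 2.18e-05 (limma with mouse as a block). Both were already abundant in control, at 321.9 ± 69.56 and 270.5 ± 27.01 FPKM (SD, n = 6), so the control slices are not a state without activity-regulated transcripts. The reads behind the values, recovered from their confidence intervals, numbered 10600193 to 19768184 per control library and 13539422 to 17506709 per cocktail library. The control library of mouse 1 was the deepest and stood apart from the other 11, as described further on.

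In control slices, Pvalb was by far the most abundant of the markers. Its 6 control libraries lay between 25.82 and 28.34 FPKM with a median of 27.03, a mean of 27.0 ± 0.912 (SD, n = 6) and a coefficient of variation of 3.38%, which was no more than the 4.33% that counting error alone gives. With this level it stood at percentile 84.8 of the 17112 loci with any signal in control. The gene lies on chromosome 15 (mm10, 78191118 to 78206351, minus strand).

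Reelin came next. Reln had a lowest value of 9.248, a median of 9.664 and a highest of 11.05 FPKM in control, with a mean of 9.81 ± 0.652 (SD, n = 6). It is a long gene (chromosome 5, 21884454 to 22344705, minus strand) with a long transcript, and its 1250 to 2505 reads per control library made it the most deeply sampled of the 8. Its coefficient of variation of 6.65% was above the 2.38% from counting, and the highest value, from mouse 3, lay apart from the other 5.

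The developmental factors that persist in mature interneurons were expressed at lower levels. Lhx6 (chromosome 2, 36081953 to 36105408, minus strand) ranged from 5.287 to 6.27 FPKM around a median of 5.757 in control. Dlx1 (chromosome 2, 71529445 to 71533980, plus strand), the shortest of the genes with a span of 4.5 kb, ranged from 3.702 to 5.588 around a median of 5.167. Sox6 (chromosome 7, 115470872 to 116038744, minus strand) ranged from 2.464 to 3.241 around a median of 3.147. Lhx6 varied by 7.20% between control libraries, close to the 6.11% from counting, whereas Dlx1 varied by 17.3%, against 6.83% from counting, and Sox6 by 0.304 FPKM (SD) around a mean of 3.03. In Dlx1 the spread came from mice 1 and 2, at 3.702 and 3.855, below the other 4 control libraries, which lay above 5 FPKM. In Sox6 the library of mouse 1 was the lowest.

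The enzyme Nos1 and the calcium buffer Calb2 lay in the same range. Nos1 (chromosome 5, 117867119 to 117953813, plus strand) ran from 3.683 to 5.26 FPKM in control with a median of 4.762, lowest in mouse 2 and highest in mouse 3. Calb2 (chromosome 8, 110142538 to 110168206, minus strand) ran from 3.415 to 4.80 with a median of 3.96, on 97 to 181 reads per library. Calb2 varied by 13.1%, against 9.02% from counting.

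The receptor Erbb4 was listed far below the rest. Its control values lay between 0.4413 and 0.8518 FPKM with a median of 0.5838 and a mean of 0.6001 ± 0.136 (SD, n = 6), at percentile 25.3 of the loci with signal, although the gene spans 1068.1 kb (chromosome 1, 68039966 to 69108059, minus strand). Only 29 to 67 reads per control library stand behind these values, and counting error alone gives a coefficient of variation of 15.5%, against 22.6% observed.

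**Figure D1:**
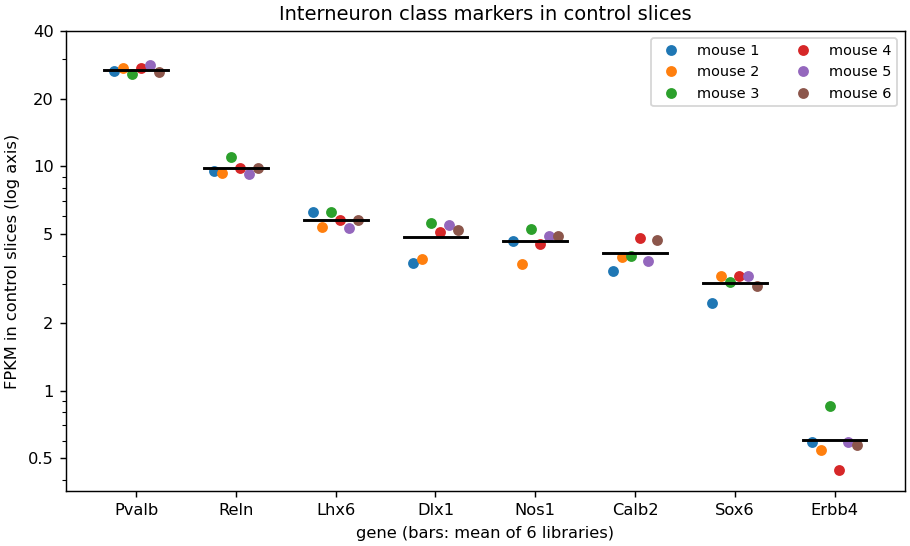
FPKM of each marker in the 6 control libraries on a log axis, ordered by the mean, with points for libraries and a bar for the mean. Pvalb sits near 27.0 FPKM in every library, 6 markers lie between 2.464 and 11.05, and Erbb4 is below 1.

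FPKM is scaled to transcript length, so the levels can be put in order as deposited values. Whether reads turn into FPKM alike for all 8 genes was not tested. The order was Pvalb, Reln, Lhx6, Dlx1, Nos1, Calb2, Sox6 and Erbb4, and it was kept with the median in place of the mean, with another scaling and without each control library in turn (8 alternatives). The other scaling divides each library by a single factor. It leaves the ratios of genes within a library unchanged, so it could hardly move the order. Between neighbours, Pvalb was 2.75-fold above Reln, Reln 1.70-fold above Lhx6, Calb2 1.36-fold above Sox6 and Sox6 5.04-fold above Erbb4, each in 6 of 6 libraries. With signs flipped over the libraries, the exact two-sided permutation test gave p = 0.03125 for each of these 4 pairs, the smallest that 6 libraries allow, and 0.05469 after Benjamini-Hochberg adjustment over the 7 neighbour pairs. Lhx6 and Dlx1 (1.20-fold, exact p = 0.0625, adjusted 0.0875) were ordered this way in 5 libraries. Dlx1 and Nos1 (1.04-fold, exact p = 0.53125) and Nos1 and Calb2 (1.13-fold, exact p = 0.21875) did not differ beyond their spread. Thus no neighbour pair passed the adjusted threshold in a design of this size.

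Stimulation with the cocktail gave no detectable difference in any marker. Of the 8 genes, 7 reached a mean of 1 FPKM and were tested among 12032 loci, and 0 were called at an adjusted p below 0.05 (limma on log2(FPKM + 1), mouse as a block), while 1.50% of all loci tested were called. A count of 0 among 7 is not set apart from that background. None of the 7 had an unadjusted p below 0.05. With voom on recovered reads (loci with a mean of at least 10 reads) 0 were called as well, and Dlx1 alone had an unadjusted p below 0.05 (0.0493, adjusted 0.455). The median fold change of the 7 was 0.03 on the log2 scale, against 0.01 over all loci, with 5 above and 2 below 0. For every marker the control and cocktail values overlapped. The share of all loci that overlap in this way is not given here, so the overlap does not set the markers apart.

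**Figure D2:**
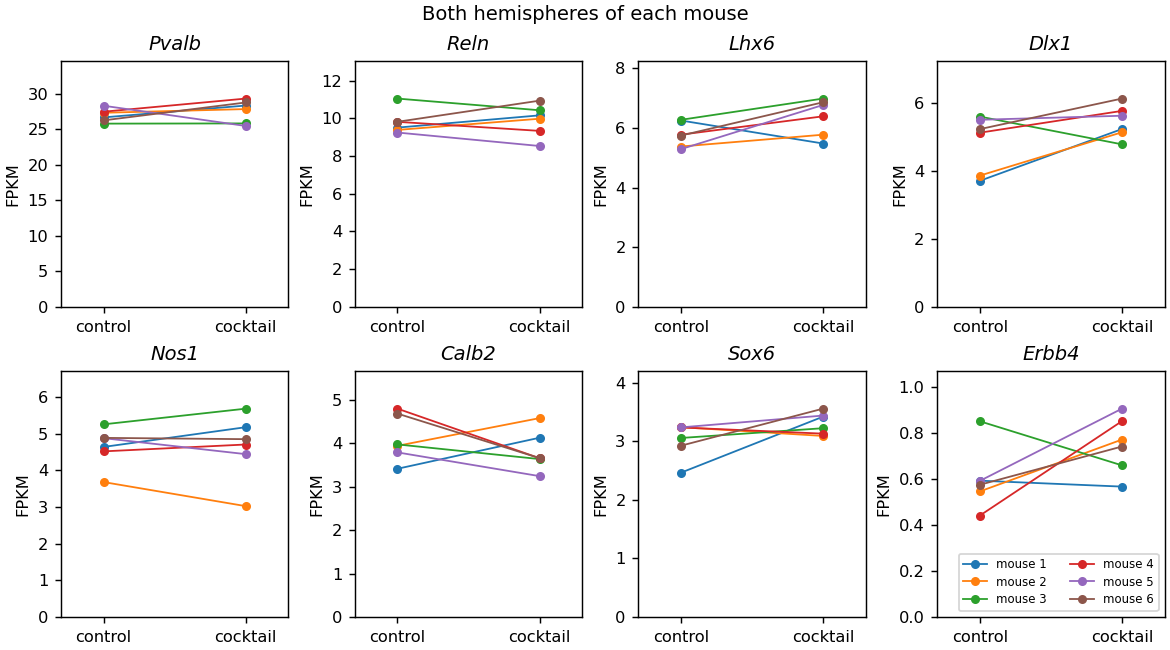
FPKM of each marker in the control and cocktail hemisphere of each mouse, with a line joining the hemispheres of 1 mouse and a separate linear axis per gene. Lines cross in every panel, and Pvalb, Lhx6 and Dlx1 are each higher after cocktail in 5 of 6 mice.

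Pvalb was the most tightly bounded. In cocktail hemispheres it ranged from 25.49 to 29.35 FPKM with a median of 28.12, and the mean was 27.6 ± 1.59 (SD, n = 6) against 27.0 in control. The log2 fold change was 0.03 ± 0.0486 (SE), the 95% interval covered 0.949- to 1.10-fold on the FPKM + 1 scale, and the adjusted p was 0.926. Fold intervals given below for the other markers are on the same scale, where the added 1 FPKM holds down changes at low levels. Pvalb was higher in 5 of 6 mice by small amounts and lower in mouse 5, which gave an exact sign-flip p of 0.46875. The exception turned with the measure: in reads per 1000000 recovered reads (RPM), Pvalb was higher after cocktail in mouse 5 (38.05 and 39.23) and lower in mouse 2 (38.26 and 37.25) and mouse 3 (36.1 and 35.77).

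Among the transcription factors, all 3 log2 fold changes were above 0 and none passed the test. Lhx6 ranged from 5.476 to 6.982 FPKM after cocktail (median 6.577), and its mean was 6.37 ± 0.621 against 5.78 ± 0.417 in control (SD, n = 6). It was lower in mouse 1 (-0.16 on the log2 scale) and higher in the other 5, by up to 0.305 in mouse 5. The log2 fold change was 0.12 ± 0.0641 (SE), with an interval of 0.985- to 1.20-fold, an adjusted p of 0.711 and an exact sign-flip p of 0.15625.

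Dlx1 had the largest log2 fold change of the 7 tested. After cocktail its libraries lay between 4.773 and 6.117 FPKM (median 5.417), with a mean of 5.43 ± 0.485 against 4.83 ± 0.833 in control (SD, n = 6). The difference was 0.15 ± 0.0757 (SE) on the log2 scale, an interval of 0.991- to 1.25-fold, with an adjusted p of 0.677 and an exact sign-flip p of 0.15625. Mice 1 and 2, which had the low control values, contributed the largest differences (0.40 and 0.34), and mouse 3 went the other way (-0.19).

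Sox6 differed by 0.10 ± 0.0661 (SE) on the log2 scale, with an interval of 0.970- to 1.19-fold and an adjusted p of 0.783. Its cocktail libraries lay between 3.092 and 3.558 FPKM (median 3.323), and 4 of 6 mice were higher. Mouse 1 alone differed by 0.35, and without mouse 1 the fold change was 0.05.

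Calb2 was the only marker whose mean FPKM was lower after cocktail, and the difference did not pass the test. It ranged from 3.245 to 4.582 FPKM (median 3.659), with a mean of 3.82 ± 0.467 against 4.10 ± 0.536 in control (SD, n = 6). Mice 1 and 2 were higher after cocktail, by 0.2165 and 0.175 on the log2 scale, and the other 4 were lower, down to -0.3165 in mouse 4. By RPM mouse 1 was lower as well (9.156 in control and 7.997 in cocktail). The log2 fold change was -0.08 ± 0.0791 (SE), with an interval of 0.838- to 1.07-fold, an adjusted p of 0.881 and an exact sign-flip p of 0.4375. Calb2 also marks part of the thalamus, and the summed level of 6 thalamic markers, Calb2 among them, was 15.89 to 21.69 FPKM in control and 17.65 to 21.01 in cocktail libraries, so that their ranges overlapped. Of the 6, 2 had log2 fold changes above 0 and 4 below. Because Calb2 is itself part of the sum, the sum cannot tell how much thalamic tissue each library held.

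For the secreted protein and the enzyme the fold changes were near 0. Reln ranged from 8.534 to 10.94 FPKM after cocktail (median 10.07), with a log2 fold change of 0.01 ± 0.0533 (SE), an interval of 0.929- to 1.09-fold, an adjusted p of 0.983 and 3 of 6 mice higher. Its sign turned when mouse 1, 2 or 6 was left out. Nos1 ranged from 3.026 to 5.688 FPKM (median 4.782), with a log2 fold change of -0.01 ± 0.0609 (SE), an interval of 0.905- to 1.09-fold, an adjusted p of 0.987 and 3 of 6 mice higher, and its sign turned without mouse 2 or 5.

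Erbb4 had too low a mean to be among the 12032 loci and was tested with every locus above 0, where 0.704% of 17477 loci were called. Its cocktail values lay between 0.5674 and 0.9067 FPKM (median 0.757), with a mean of 0.750 ± 0.124 (SD, n = 6), and the ratio of the means was 1.25-fold. The log2 fold change, which the added 1 FPKM holds down at this level, was 0.13 ± 0.0664 (SE) with an adjusted p of 0.705, and 4 of 6 mice were higher (exact sign-flip p = 0.1875). On recovered reads, with no such constant in the way, it was 0.31 ± 0.174 (SE), with a 95% interval of -0.08 to 0.70 and an adjusted p of 0.538 (voom, loci with a mean of at least 10 reads). With 29 to 72 reads per library, this interval was the widest of the 8 markers on recovered reads.

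**Figure D3:**
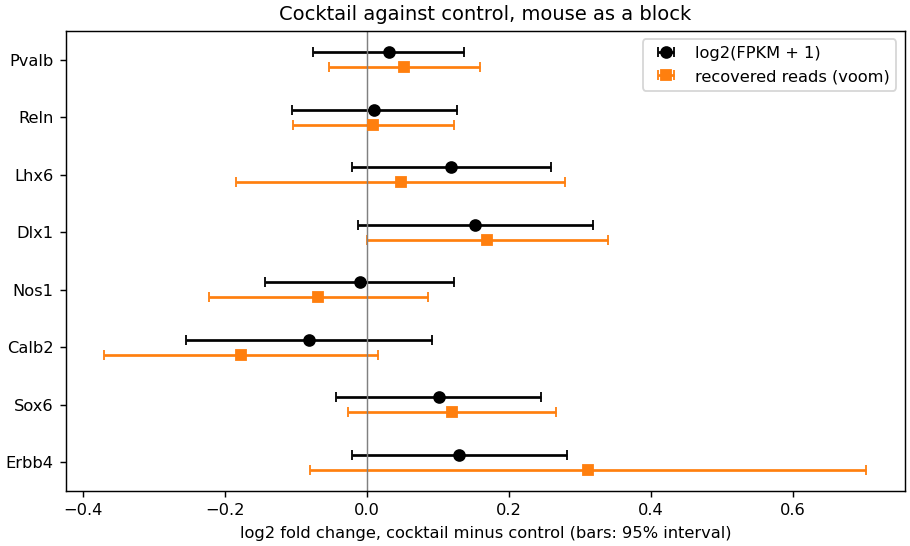
Log2 fold change of each marker, cocktail minus control, with its 95% interval, from log2(FPKM + 1) (black circles) and from voom on recovered reads with at least 10 reads on average (orange squares), the black value of Erbb4 being from the fit of every locus above 0. Each black interval holds 0, the orange interval of Dlx1 begins at 0.0007, and Erbb4 has the widest.

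The control library of mouse 1 differed from the others in how FPKM related to reads. More reads stood behind 1 FPKM there: for Calb2 2.68 RPM per FPKM against 1.92 to 2.03 in the other 11 libraries, for Nos1 7.54 against 5.32 to 6.06, and for Lhx6 3.99 against 2.97 to 3.27. Relative to the median of the other 11, it was 1.37-fold for Calb2, 1.35-fold for Nos1, 1.28-fold for Lhx6, 1.21-fold for Dlx1 and 1.15-fold for Sox6, and 1.05-fold to 1.07-fold for Pvalb, Erbb4 and Reln. Over 11907 loci the same library had the highest ratio of the 12 at 63.3% of loci, and no other library exceeded 13.4%.

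The markers with their lowest control FPKM in this library were not lowest on reads. Calb2 had the lowest control FPKM in mouse 1 (3.415) but 9.156 RPM there, within a control range of 7.385 to 9.259. Dlx1 had 13.46 RPM in mouse 1, above the 12.33 of mouse 2, and Sox6 had 26.59, above the 26.34 of mouse 6. For Lhx6 the mouse 1 control held 24.96 RPM, the highest of all control libraries. Without mouse 1 the log2 fold changes were -0.14 for Calb2 (adjusted p = 0.635), 0.17 for Lhx6 (0.238), 0.10 for Dlx1 (0.746) and -0.04 for Nos1 (0.892), and with voom they were -0.18 (0.474), 0.05 (0.864), 0.17 (0.446) and -0.07 (0.702), in limma throughout. The estimate of Lhx6 thus lay between 0.05 and 0.17 over these settings, and none of them gave a call. What sets the library apart was not tested.

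**Figure D4:**
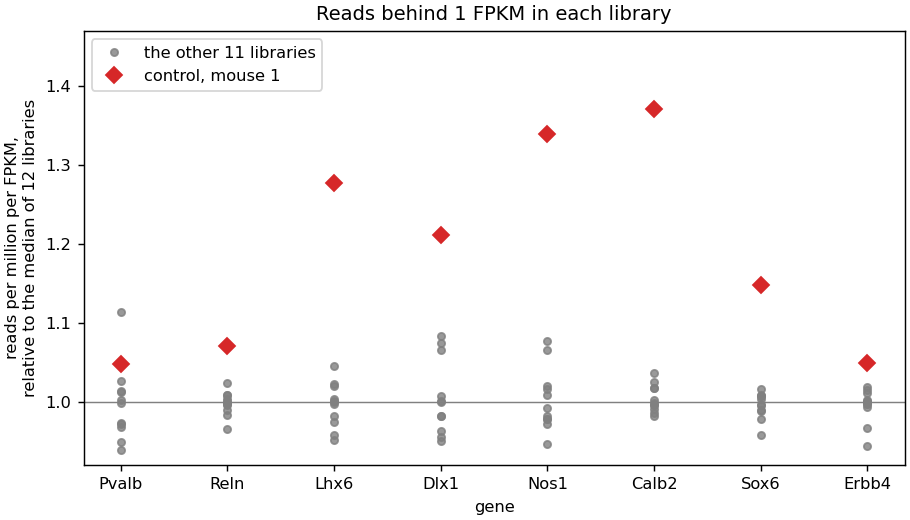
RPM behind 1 FPKM of each marker, relative to the median of the 12 libraries, with the control library of mouse 1 as red diamonds and the other 11 as grey points. The red points stand above all grey ones for every marker but Pvalb, by the most for Calb2 and Nos1.

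The hemispheres of each mouse were also compared with each other. For Nos1, mouse 2 was lowest (3.683 and 3.026 FPKM in control and cocktail) and mouse 3 highest (5.26 and 5.688) in both groups. By RPM mouse 2 was lowest as well (22.07 and 16.73). Mouse 1 was then the highest (35.01 and 31.42), above mouse 3 (30.21 and 31.1). The correlations below use log2(FPKM + 1) and were not repeated on reads. Over the 6 mice Pearson's r between hemispheres was 0.921 (exact permutation p = 0.0319, adjusted 0.255 over the 8 markers) and Spearman's rho 0.714 (exact permutation p = 0.136, adjusted 0.544), but r was -0.351 without the pair of mice farthest from the median, so the relation rests on those. For the other 7 markers r lay between -0.507 and 0.485. This measure was chosen after the data had been seen.

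Between mice, no pair of markers varied together past the threshold. Of 28 pairs, with both hemispheres averaged, 0 had an adjusted p below 0.05 (smallest 0.603) and 2 had an exact permutation p below 0.05 before adjustment. With median-of-ratios scaling the smallest adjusted p was 0.0972 and 3 pairs had an exact permutation p below 0.05, and in the control libraries alone 0 pairs did. Dlx1 and Sox6 had r = 0.755 (exact permutation p = 0.0375, adjusted 0.603) and rho = 0.886 (p = 0.0333, adjusted 0.693), and r = 0.71 without the 2 mice farthest from the median of Dlx1. Lhx6 and Nos1 had r = 0.848 (exact permutation p = 0.0431, adjusted 0.603) and rho = 0.60 (adjusted 0.693), which fell away without the farthest 2 mice (r = -0.01). Both Dlx1 and Sox6 had a low FPKM in the mouse 1 control library described above.

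For each marker the loci with the most similar pattern were listed. As a description over libraries that share mice and treatment, the highest Pearson's r of log2(FPKM + 1) among 12031 other loci were 0.832 for Pvalb (with Nrg3, a neuregulin), 0.884 for Calb2 (Thrb, a thyroid hormone receptor), 0.934 for Reln (Anks1b) and 0.862 for Lhx6 (Kctd21). For Dlx1 the highest was 0.92 (2510002D24Rik), for Sox6 0.897 (Tmem237) and for Nos1 0.907 (Gstm6), and Erbb4 reached 0.853 with Rsu1. The loci placed next were AI118078 for Pvalb, R3hdm2 for Calb2, Nfasc for Reln, Cyyr1 for Lhx6, Lbr for Dlx1, Fam213a for Sox6, Lamb1 for Nos1 and Trp53i13 for Erbb4. These values were picked as the highest over all loci and have no test. Spearman's rho with the first-placed loci was below r for every marker, with 0.783 for Dlx1, 0.706 for Sox6 and 0.72 for Nos1. Whether single libraries carry the higher r was not tested.

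The genes around the markers were read against the same 1.50% of all loci called. Of 20 other genes of GABAergic cells, 17 were tested and 0 were called, 14 lay above 0 and 3 below, and their median was 0.07 against 0.01 over all loci, of which 54.4% lay above 0. Among the most abundant were the neuropeptides Cck (345 FPKM, log2 fold change -0.03), Sst (303 FPKM, 0.09) and neuropeptide Y, Npy (106 FPKM, 0.01). In bulk tissue these levels, that of Cck above all, cannot be assigned to GABAergic cells alone. Gad1 and Gad2 differed by 0.07 (adjusted p = 0.794) and 0.10 (adjusted p = 0.683). Corticotropin releasing hormone, Crh, was singled out after its values were seen: it had 3.96 ± 1.36 FPKM in control and 5.31 ± 0.844 in cocktail (SD, n = 6), a log2 fold change of 0.38 ± 0.111 (SE) and an adjusted p of 0.196. It was called (0.51, adjusted p = 0.0216) when mouse 3 was left out.

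The transcription factors of interneurons had the most genes with a small unadjusted p among the related lists. Of 15, 13 were tested, 10 were above 0 and 0 were called, and the median was 0.08. An unadjusted p below 0.05 was found in 4 of the 13, all above 0 and with Dlx2 and Sp9 among them, against 8.05% of all loci. Both were named after their values were seen. Dlx2, the paralog of Dlx1, ranged from 1.329 to 2.325 FPKM in control (median 1.756) and from 2.221 to 3.358 in cocktail (median 2.607), on 27 to 92 reads per library. It was higher in 6 of 6 mice, and had a log2 fold change of 0.39 ± 0.0918 (SE) with an adjusted p of 0.0688, or 0.372 with voom and 0.0944 without mouse 1. Among the most abundant were Nr2f1 (32.9 FPKM, log2 fold change -0.08), Satb1 (24.5 FPKM, -0.04) and Maf (7.48 FPKM, 0.04).

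Genes that work with single markers were counted in the same way. Of 14 genes of fast-spiking cells, 13 were tested, 8 were above 0, 0 were called and the median was 0.02, with the release protein Cplx1 (226 FPKM, log2 fold change 0.06) and the potassium channel Kcnc1 (50.2 FPKM, -0.05) among the most abundant. In the reelin pathway 9 of 10 genes lay below 0 with a median of -0.03, and 0 were called. Its most abundant genes were Pafah1b1 (131 FPKM, log2 fold change -0.03), the kinases Fyn (36.3 FPKM, -0.0011) and Src (31.2 FPKM, -0.09) and Rapgef1 (30.7 FPKM, -0.03). The reelin receptors Lrp8 and Vldlr had log2 fold changes of -0.04 and -0.01, and their adaptor Dab1 had 0.01. In the nitric oxide and cGMP pathway, 12 of 13 genes were tested, 8 were above 0, 0 were called and the median was 0.03. The phosphodiesterase Pde2a (116 FPKM, -0.05), Dynll1 (111 FPKM, 0.07), the guanylate cyclase subunit Gucy1b3 (44.2 FPKM, 0.0041) and Nos1ap (42.9 FPKM) were the most abundant. The endothelial synthase Nos3 (0.23, adjusted p = 0.213) and the Nos1 adaptor Nos1ap (-0.12, adjusted p = 0.505) had an unadjusted p below 0.05, and this was noted after their values were seen.

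The ErbB list held the single call. Of 12 neuregulin and ErbB genes 9 were tested, 5 lay above 0 and the median was 0.03. Hbegf, a ligand of the epidermal growth factor receptor and of Erbb4, ranged from 5.328 to 9.111 FPKM in control (median 8.04) and from 7.833 to 11.05 in cocktail libraries (median 9.518), so that the groups overlapped. Within mice it rose by 0.26 ± 0.0570 (SE) on the log2 scale, in 6 of 6, with an adjusted p of 0.0428. The call was lost without the mouse block (adjusted p = 0.672), with no filter (0.109), with voom (0.0822) and without any 1 of the mice (0.0548 to 0.163, limma throughout). The ligands Nrg1 (0.07), Nrg2 (-0.09) and Nrg3 (0.03) did not pass the test.

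**Figure D5:**
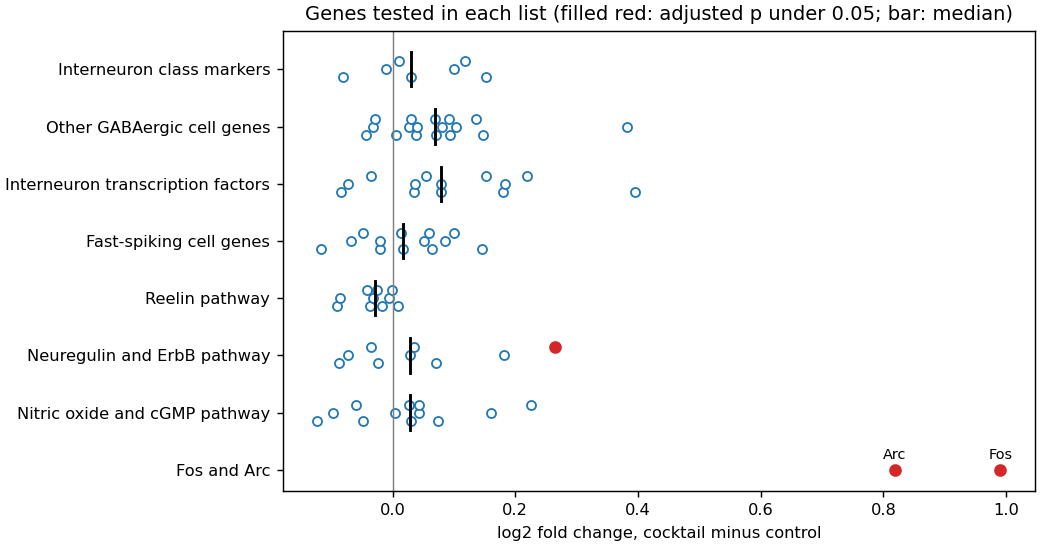
Log2 fold change, cocktail minus control, of each gene tested in the marker list and 6 related lists, with Fos and Arc for scale, filled red where the adjusted p is below 0.05 and with a bar at the median of each list. Hbegf at 0.26 is the 1 filled point among the lists, and the markers lie between -0.08 and 0.15.

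Markers of other cell types and of neighbouring regions gave 0 calls in lists of 4 to 8 tested genes, which at 1.50% of all loci called is not set apart from the background. The 5 oligodendrocyte markers all lay above 0 (median 0.11), with a summed level of 1846 to 2406 FPKM in control and 2149 to 2487 in cocktail libraries. The 8 markers of excitatory neurons had a median of -0.03 and 1356 to 1502 against 1282 to 1474 FPKM, and the summed ranges also overlapped for markers of astrocytes, oligodendrocyte precursors, microglia, endothelial cells, striatum, thalamus and hippocampus. Their part in the values of the interneuron markers was not tested.

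Some loci carry a limit from the annotation. Exons of Reln, Dlx1 and Nos1 overlap a gene on the opposite strand in GENCODE M21 (Gm10475, Dlx1as and Gm26995). The study's methods call the reads strand specific, and the strand setting used for the FPKM is not given in the sources used here. Where strand was not used, reads of these antisense partners cannot be told apart. An exon of Lhx6 overlaps Gm27953 on the same strand. Lhx6 has 4 RefSeq transcripts from 2 start sites and Sox6 has 6 from 6, and the deposited FPKM is 1 value for all of them.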

How the data were processed

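Polyadenylated RNA of dissected auditory cortex was sequenced as single 50 bp reads, with all libraries in 1 lane. The authors removed ribosomal reads with BWA 0.6.1, aligned the rest to mm10 with TopHat 1.4.1 allowing a single placement, and estimated FPKM with Cufflinks 1.3.0 with bias correction and protein coding RefSeq genes in the denominator. According to the study's methods slices stayed a further 1 h in aCSF after the incubation, a step that the labels do not mention. FPKM were used as deposited. A table that the authors made with HTSeq 0.6.1p1 and DESeq2 1.6.3 holds mean counts, fold changes, p-values and group means of their own comparison and was not used.

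For loci with a mean of at least 1 FPKM, log2(FPKM + 1) was fitted on mouse and treatment in limma 3.58.1 under R 4.3.3, with a variance trend and Benjamini-Hochberg adjustment at 0.05. The pseudocount of 1 understates changes of low genes. Pairing comes from the mouse number in the labels. Hemispheres of 1 mouse deviated together, with correlations of 0.216 to 0.406 in 6 of 6 pairs, against -0.42 to 0.445 (median -0.07) in the 30 pairs between mice. Single genes were tested with exact two-sided sign-flip permutation tests in Python 3.11.15 (scipy 1.17.1).

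Reads were recovered from the Cufflinks confidence bounds as the square of 2 FPKM divided by the distance from FPKM to the upper bound. Of 35887 values under 20 reads, 83.7% were whole to within 0.05. Intervals and counting errors drawn from reads cover counting error only. Scripts were tested on simulated data.

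The members, lists and tests were chosen with earlier results of these data known. All markers are named. Of other lists, called genes are named, at most 4 each, and otherwise the 4 most abundant, some of which are not reported here, and for likeness the 2 loci with the highest r. Alternatives were another pseudocount, filter, scaling, variance trend or threshold, no mouse block, voom, and leaving out each mouse. After the data were seen, voom on loci with a mean of at least 10 reads, the correlation of hemispheres, another scaling for the order of levels, and the unfiltered alternatives for Erbb4 were added.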

Additional observations from a re-analysis of the deposited data

Results flagged for a closer look

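Reln in the control hemisphere of mouse 3 lay apart from its group, at 11.05 FPKM against 9.248 to 9.818 in the other 5 control libraries, a gap of 0.684 of the whole range. Erbb4 in the same library lay apart as well, at 0.8518 FPKM against 0.4413 to 0.5932, a gap of 0.63 of the range, both above Dixon's critical value for 6 samples. Among the 24 groups examined in this way, chance gives about 1.2 such values, 1 in 20.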

How the results depend on the processing

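No marker with a value was called in any of 16 alternatives, which hold 7 markers in most, 8 with no filter or with voom at 10 reads, and 4 at 5 FPKM, and their median log2 fold change kept its sign, between 0.0112 and 0.0662 when each mouse was left out. Over all loci, 180 calls became 88 without the mouse block and 104 to 181 when a mouse was left out, with 104 without mouse 4. The block changed no call among the markers. With mouse 1 left out, Lhx6 had an unadjusted p of 0.00709 (limma, adjusted 0.238). With mouse 3 left out, Dlx1 had 0.0108 (limma, adjusted 0.369) and Erbb4 0.0153 (limma with no filter, adjusted 0.497). The 1 call in the related lists, Hbegf, became 0 with no filter, with no mouse block, with voom at either minimum of reads, and the lists held 0 to 1 calls with a mouse left out (the 1, without mouse 3, was Crh and not Hbegf). Log2 fold changes near 0 turned sign: Reln, 0.01, became -0.0018 with quantile normalization, -0.0048 without mouse 1, -0.0035 without mouse 2 and -0.0159 without mouse 6, within -0.0159 to 0.0334 when each mouse was left out. Nos1, -0.01, became 0.0311 without mouse 2 and 0.0097 without mouse 5, within -0.0388 to 0.0311 when each mouse was left out and down to -0.0684 with voom. The cause of these shifts was not tested. The other markers kept their direction, within 0.0112 to 0.0662 for Pvalb, -0.1775 to -0.0343 for Calb2, 0.0477 to 0.1746 for Lhx6, 0.1019 to 0.2208 for Dlx1, 0.0506 to 0.1313 for Sox6 and 0.084 to 0.3116 for Erbb4. A minimum of 5 FPKM gave no value for Calb2, Sox6, Nos1 and Erbb4. Erbb4 and then Calb2 had the fewest reads.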
